A study of Homo sapiens with 5 samples.

Results

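The CDC-like kinases (CLK1 to CLK4) and the dual-specificity tyrosine-regulated kinases (DYRK1A, DYRK1B, DYRK2, DYRK3 and DYRK4) are neighbouring families of protein kinases that act in RNA splicing, the cell cycle and development. Their transcripts were followed in HEK293T, a cell line of human embryonic kidney with the large T antigen of SV40, after transfection with dCas9 methyltransferases. The 9 genes were taken by symbol from 19716 genes with a read in any library. The families were proposed with the data known. They were chosen by the level of DYRK1B, which stood apart between the fusion libraries and the pUC19 control. Differences from pUC19 are therefore described below and not tested.

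Cells of 4 groups received guide RNAs (sgRNAs) to the uPA promoter (PLAU in the files) together with a plasmid for dCas9, a Cas9 without nuclease activity, joined to a blue fluorescent protein (BFP) and a partner. The number of uPA sgRNAs was 5 in each of these groups. The partner was the catalytic domain of DNMT1, a maintenance methyltransferase, that of a de novo methyltransferase (DNMT3A or DNMT3B), or EGFP, which does not methylate DNA. The fifth group received pUC19, a plasmid without dCas9 or sgRNA, as the control. In the paper, methylation of the uPA promoter rose significantly over pUC19 with the DNMT3A and DNMT3B fusions. It did not with the DNMT1 or the EGFP fusion. The plasmid amount was 1 ug and RNA was taken at 48 h from cells that the labels describe as sorted for BFP, although pUC19 encodes no BFP. Every group had 1 library, so that no difference from pUC19 has a replicate check and intervals below cover the counting of reads only.

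CLK kinases phosphorylate the serine and arginine-rich (SR) proteins, which select splice sites, and release them from nuclear speckles. DYRK kinases phosphorylate a tyrosine of their own activation loop while they are being made and afterwards phosphorylate serine and threonine of other proteins. DYRK1A and DYRK1B form the nuclear class I, with roles in neural development and in the exit from the cell cycle, and DYRK2, DYRK3 and DYRK4 form class II.

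The coding stretches that give each family its hallmark are shown first, since they show how far the members are distinguishable to a short read. The CLK genes carry the LAMMER motif of the kinase domain, named after its amino acids, of which CLK3 has a variant. In the 30 bases below, from the canonical transcripts of GENCODE v44 on GRCh37 and read 5′ to 3′ on the coding strand, capitals mark the 12 positions that varied among the 4 genes.
CLK1: gagcaTTtAgCAatgatggaAAGGatTCtT
CLK2: gagcaTCtAgCCatgatggaAAGGatCTtG
CLK3: gagcaCCtGgTGatgatggaGAAGatCCtA
CLK4: gagcaCCtGgCAatgatggaACGAatATtA
The stretches lie at chr2:201719374-201719403 (minus strand) for CLK1, chr1:155234047-155234076 (minus) for CLK2, chr15:74920960-74920989 (plus) for CLK3 and chr5:178032339-178032368 (minus) for CLK4, each within coding exon sequence. CLK1 and CLK2 differed least, at 5 of 30 bases, and CLK1 and CLK3 most, at 9.

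The DYRK genes share an activation loop with a pair of tyrosines separated by 1 residue, of which the second is the one that the kinase phosphorylates itself. In the following 30 bases capitals mark the codons of these tyrosines.
DYRK1A: TACcagTATattcagagtcgcttttatcgg
DYRK1B: TACcagTATatccagagccgcttctaccgc
DYRK2: TACacgTACatccagtcgcgtttttaccgg
DYRK3: TACacaTATatccagtctcggttctacaga
DYRK4: TACacgTACatccaaagccggttctaccga
They lie at chr21:38865322-38865351 (plus) for DYRK1A, chr19:40318264-40318293 (minus) for DYRK1B, chr12:68051825-68051854 (plus) for DYRK2, chr1:206821642-206821671 (plus) for DYRK3 and chr12:4714082-4714111 (plus) for DYRK4, on GRCh37 and within coding exons. The codon between the tyrosines was cag in both class I genes and aca or acg in the 3 class II genes. DYRK1A and DYRK1B differed at 5 of 30 bases, the fewest of any DYRK pair.

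The libraries held 26250000 (EGFP fusion) to 36140000 (pUC19) reads assigned to genes, to the nearest 10000, a range of 1.38-fold. PLAU, the targeted gene, had 6, 6, 1 and 4 reads in the DNMT1, DNMT3A, DNMT3B and EGFP fusions and 106 reads in pUC19. The 5 genes listed as markers of HEK293T (LIN28B, PAX2, NEFL, NEFM and IRS4) were present in all 5 libraries, but their summed level was 200 to 202 TPM in the fusions and 738 TPM in pUC19, with NEFL, NEFM and IRS4 at least 2-fold lower in all 4 fusions. Markers of other cell types summed to 4.53 to 8.80 TPM, mostly COL1A1, while PTPRC, ALB and DES each stayed under 0.5 TPM in every library and CD3E had no row. These 3 of the 5 HEK293T markers thus also separated pUC19 from the fusions, in the opposite direction to the class I DYRK genes below, while LIN28B and PAX2 did not, and their part in those results was not tested. In RNA from bulk cells, fewer cells of a kind and less RNA per cell cannot be told apart.

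All 9 kinases were expressed, each with a mean of at least 1 TPM over the libraries. TPM is a read count per base of the gene, brought to the same total in every library, so that levels of different genes may be compared on it. CLK2 had the highest level of the 9 in every library and CLK4 the lowest. Behind CLK2, the order of levels was DYRK1B, CLK3 and DYRK1A in each of the 4 fusions. In the DNMT3A and DNMT3B fusions the counting intervals of DYRK1B and CLK3 overlapped. In pUC19 the order was CLK2, CLK3, DYRK4, CLK1, DYRK3, DYRK1A, DYRK2, DYRK1B and CLK4, and the intervals overlapped between CLK1 and DYRK3, between DYRK1A and DYRK2 and between DYRK2 and DYRK1B. DYRK1B thus held the second place in the fusions and the eighth in the control.

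**Figure D1:**
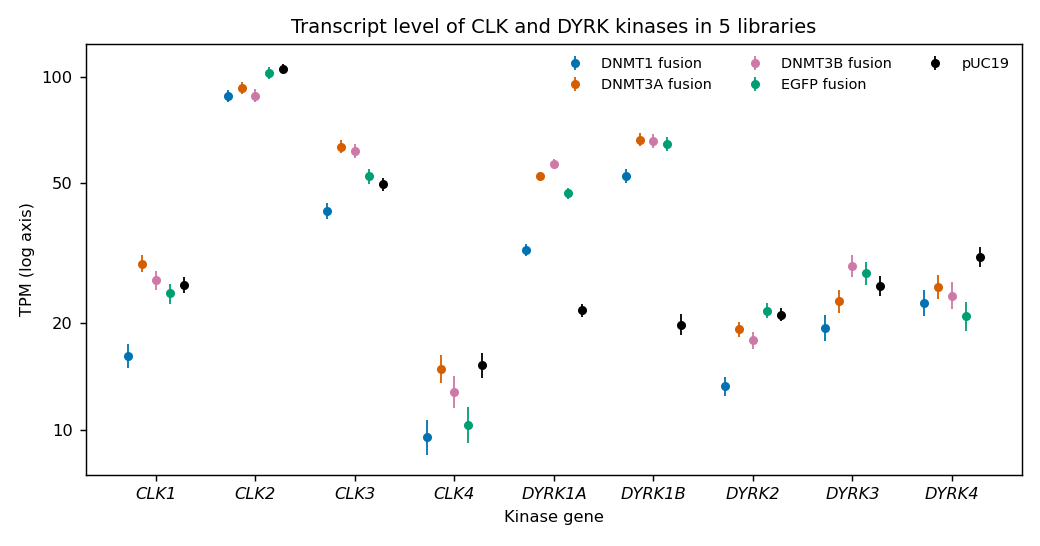
Level of each CLK and DYRK kinase gene in the 5 libraries, in TPM on a log axis, with 1 point per library and bars for the 95% exact Poisson interval of its reads. DYRK1A and DYRK1B are the genes whose pUC19 point lies below all 4 fusion points, at 21.8 and 19.9 TPM, and CLK2 is the highest gene in every library.

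The CLK family as a whole was at a similar level in 4 of the libraries. Its summed level was 201 TPM in the DNMT3A fusion, 190 TPM in the DNMT3B fusion, 190 TPM in the EGFP fusion and 197 TPM in pUC19, with the DNMT1 fusion lower at 156 TPM. CLK2 made up 46.3% to 56.8% of this sum. The DYRK sum was instead lowest in pUC19, at 119 TPM, against 140 TPM in the DNMT1 fusion, 187 TPM in the DNMT3A fusion, 194 TPM in the DNMT3B fusion and 182 TPM in the EGFP fusion. The ratio of CLK to DYRK transcripts was accordingly 1.65 in pUC19 and 0.981 to 1.11 in the fusions.

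The composition of the DYRK family differed more than its sum. The class I genes DYRK1A and DYRK1B held 34.9% of the DYRK sum in pUC19 and 60.4%, 63.7%, 63.3% and 61.3% in the DNMT1, DNMT3A, DNMT3B and EGFP fusions. DYRK1B alone held 16.6% in pUC19 and 34.0% to 37.3% in the fusions. Class I thus held the smaller share of the family in the control and the larger share in each of the fusions.

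**Figure D2:**
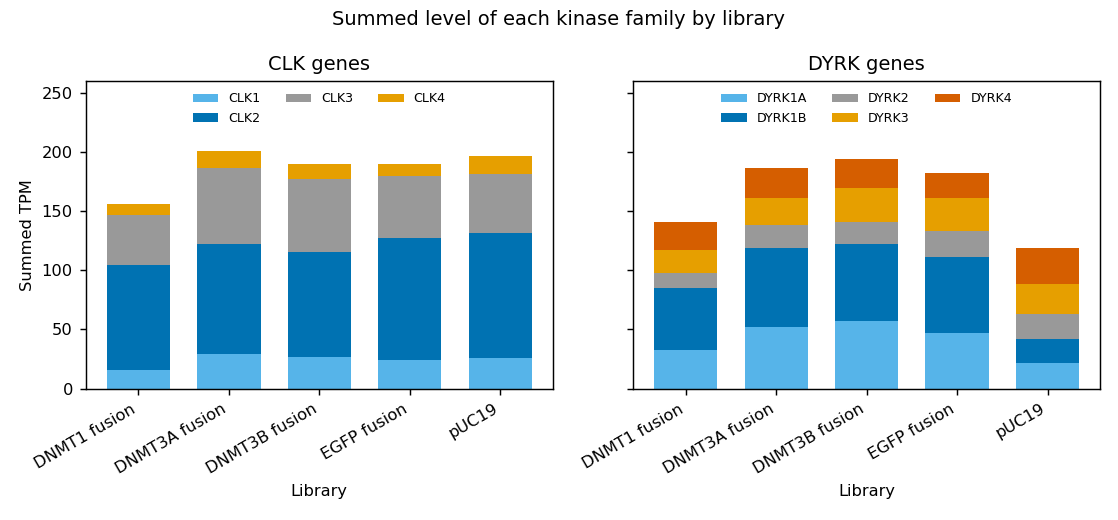
Summed level in TPM of the 4 CLK genes (left) and the 5 DYRK genes (right) in each of the 5 libraries, stacked by gene on an axis from 0. The CLK bars lie between 156 and 201 TPM, and in the DYRK bars the lower 2 segments (DYRK1A and DYRK1B) hold 34.9% of the pUC19 bar and 60.4% to 63.7% of the fusion bars.

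Among the CLK kinases, no gene differed 2-fold from pUC19 in any fusion. CLK1, a nuclear kinase of SR proteins (NCBI Gene 1195), was at 16.2 TPM in the DNMT1 fusion, 29.6 TPM in the DNMT3A fusion, 26.5 TPM in the DNMT3B fusion, 24.3 TPM in the EGFP fusion and 25.7 TPM in pUC19. It was low in the DNMT1 fusion, at 1.58-fold below pUC19, while the other 3 fusions lay on either side of the control, or all above it (0.53, 0.31 and 0.069 on the log2 scale in the DNMT3A, DNMT3B and EGFP fusions) with the trend on GC content and gene length subtracted. CLK4 (57396), the closest relative of CLK1, was at 9.50, 14.9, 12.8 and 10.3 TPM in the DNMT1, DNMT3A, DNMT3B and EGFP fusions and at 15.2 TPM in pUC19, above all 4 fusions. The DNMT3A fusion was close to the control, at a log2 ratio of -0.03 (-0.21 to 0.14), and lay above it, at 0.23, with that trend subtracted. CLK4 had the fewest reads of the 9 genes, 294 to 613, so that its ratio to pUC19 in the EGFP fusion, -0.56 on the log2 scale of TPM + 0.1, had an interval from -0.76 to -0.35.

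CLK2 (1196), the most abundant member, was also the most even. It was at 88.6 TPM in the DNMT1 fusion, 93.1 TPM in the DNMT3A fusion, 88.75 TPM in the DNMT3B fusion, 103 TPM in the EGFP fusion and 106 TPM in pUC19. The control was the highest library, but by at most 1.20-fold. CLK3 (1198) was at 41.8, 63.5, 61.9 and 52.4 TPM in the DNMT1, DNMT3A, DNMT3B and EGFP fusions and at 49.8 TPM in pUC19, which lay inside the range of the fusions. CLK3 was higher in both de novo fusions than in the other 3 libraries, by 1.28-fold and 1.24-fold relative to pUC19. The genes that overlap CLK2 (HCN3) and CLK3 (EDC3) on the opposite strand could share reads with them, since the strand of the library was not stated. The CLK2 pseudogene CLK2P had at most 16 reads in any library.

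DYRK1B (9149; chr19:40315990-40324841, minus strand, GRCh37), also called MIRK, holds cells in a resting state and in these data was the kinase furthest from pUC19. It had 1650 reads in the DNMT1 fusion, 2155 in the DNMT3A fusion, 1884 in the DNMT3B fusion, 1855 in the EGFP fusion and 804 in pUC19. These gave 52.5 TPM in the DNMT1 fusion, 66.6 TPM in the DNMT3A fusion, 65.9 TPM in the DNMT3B fusion, 64.7 TPM in the EGFP fusion and 19.9 TPM in pUC19. Every fusion lay above the control and the 4 fusions lay close together, with 62.4 ± 6.67 TPM (mean ± SD over the 4 constructs, which are not replicates). The level was 2.63-fold that of pUC19 in the DNMT1 fusion, 3.34-fold in the DNMT3A fusion, 3.31-fold in the DNMT3B fusion and 3.25-fold in the EGFP fusion. The corresponding log2 ratios were 1.40 (95% interval 1.28 to 1.52), 1.74 (1.62 to 1.86), 1.73 (1.61 to 1.85) and 1.70 (1.58 to 1.82). Of 13921 genes with a mean of at least 1 TPM, 110, 125, 133 and 93 had a higher ratio than DYRK1B in these fusions. The higher level of DYRK1B was seen in the EGFP fusion, which lacks a methyltransferase, and in the fusions that carry a methyltransferase domain. These ratios all share the pUC19 library, and the cause of the higher level was not tested.

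DYRK1A (1859; chr21:38737875-38898660, plus strand), a dosage-sensitive gene of the Down syndrome region, followed DYRK1B. It was at 32.4 TPM in the DNMT1 fusion, 52.4 TPM in the DNMT3A fusion, 56.8 TPM in the DNMT3B fusion, 46.8 TPM in the EGFP fusion and 21.8 TPM in pUC19. All 4 fusions lay above the control, but they spread 1.75-fold among themselves, against 1.27-fold for DYRK1B. The ratio to pUC19 was 1.48-fold in the DNMT1 fusion, 2.40-fold in the DNMT3A fusion, 2.60-fold in the DNMT3B fusion and 2.14-fold in the EGFP fusion, so that the DNMT1 fusion stayed below 2-fold. In the EGFP fusion the log2 ratio of 1.10 (1.02 to 1.17) lay just past 2-fold and became 0.996 when a trend on GC content and gene length was subtracted. DYRK1B exceeded DYRK1A 1.16-fold to 1.62-fold in the fusions, whereas in pUC19 the ratio was 0.910.

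The class II genes did not share this pattern. DYRK2 (8445), which also serves as the scaffold of a ubiquitin ligase, was at 13.3, 19.3, 17.9 and 21.8 TPM in the DNMT1, DNMT3A, DNMT3B and EGFP fusions and at 21.2 TPM in pUC19. Its lowest level was in the DNMT1 fusion, 1.59-fold below pUC19, and in the DNMT3A fusion its log2 ratio of -0.14 became 0.065 with the trend on GC content and gene length subtracted. DYRK3 (8444), which dissolves stress granules and other condensates, was at 19.4, 23.1, 29.1 and 27.8 TPM in these fusions and at 25.6 TPM in pUC19, inside their range. DYRK4 (8798), the least studied of the family, was at 22.9, 25.4, 24.0 and 20.9 TPM in these fusions and at 30.9 TPM in pUC19, above all of them by 1.21-fold to 1.47-fold. DYRK4 was therefore the DYRK gene that was highest, and DYRK1A and DYRK1B those that were lowest, in the control.

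**Figure D3:**
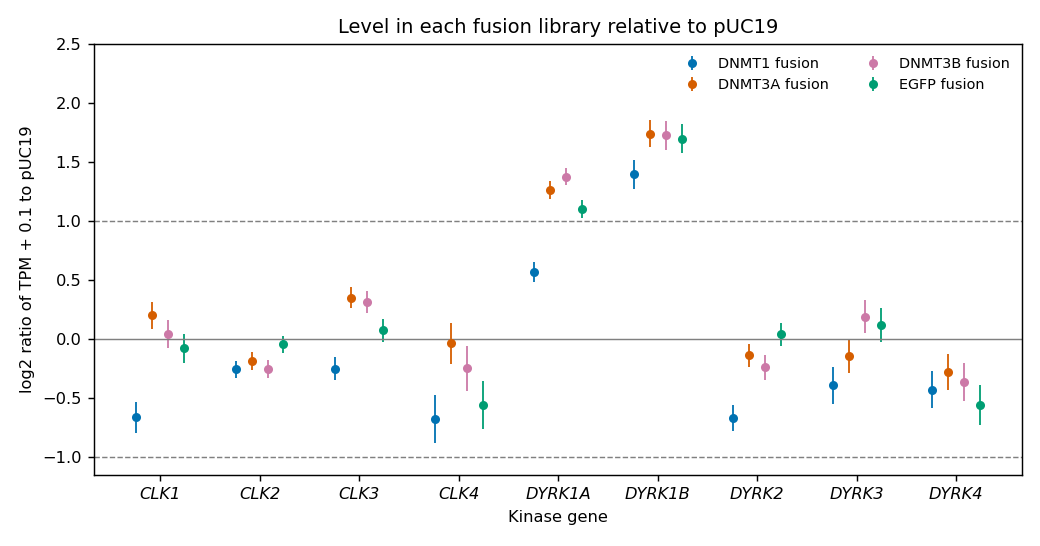
Log2 ratio of TPM + 0.1 of each fusion library to pUC19 for the 9 kinase genes, with 95% exact conditional binomial intervals of the reads and dashed lines at 2-fold in either direction. DYRK1B lies past the upper line in all 4 fusions (1.40 to 1.74) and DYRK1A in 3 (1.10 to 1.38, with 0.57 in the DNMT1 fusion), and the other 7 genes lie between the lines.

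Counted over the family, 1 of 9 kinases was at least 2-fold higher than pUC19 in the DNMT1 fusion, where 2.08% of the 13921 genes were, and 2 of 9 in each of the DNMT3A, DNMT3B and EGFP fusions, where 5.88%, 6.16% and 3.58% of the genes were. DYRK1B was higher in all 4 fusions, as were 0.812% of the genes. Nothing is read from these shares, because this contrast brought the families forward. At 1.5-fold, 3 kinases (CLK1, CLK4 and DYRK2) were lower in the DNMT1 fusion, as were 16.2% of the genes. With the trend on GC content and gene length subtracted they were at -0.23, -0.30 and -0.41 (log2), short of 1.5-fold. No kinase was at least 2-fold lower, against 4.88%, 6.11%, 5.38% and 4.13% of the genes in the DNMT1, DNMT3A, DNMT3B and EGFP fusions. The median log2 ratio of the 9 kinases was -0.39, -0.03, 0.05 and 0.04 in these fusions, beside -0.14, -0.02, -0.01 and -0.00345 for the genes tested. pUC19 was the lowest library for DYRK1A and DYRK1B, as for 23.7% of the genes, and the highest for CLK2, CLK4 and DYRK4, as for 32.7%.

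On the TPM scale the DNMT1 fusion had the lowest level of the 5 libraries for 6 of the 9 kinases. These were CLK1, CLK2, CLK3, CLK4, DYRK2 and DYRK3, and 29.4% of the genes were lowest there. With TMM scaling CLK2 was instead lowest in the DNMT3B fusion, at -0.25 (log2) from pUC19 against -0.13 in the DNMT1 fusion. CLK4 was then lowest in the EGFP fusion, at -0.57 against -0.55 in the DNMT1 fusion. On the TPM scale the median gene of that library was itself 0.138 (log2) below pUC19 and 0.129 below the EGFP fusion, against 0.011 below and 0.006 above with TMM scaling, which sets the bulk of genes equal between libraries. Relative to its median gene, CLK1 was at -0.53, CLK4 at -0.54 and DYRK2 at -0.53 from pUC19, whereas CLK2 at -0.12 and CLK3 at -0.11 were close to it. DYRK1B was at 1.54 and DYRK1A at 0.71 on that scale. For the other pairs of a fusion with pUC19 or EGFP the median gene lay within 0.02 of 0.

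The plasmids encode catalytic domains of the methyltransferases, and reads from them cannot be told apart here from those of the cell's own genes. The rows of DNMT1, DNMT3A and DNMT3B together held 3.54%, 3.23% and 6.02% of the reads in the DNMT1, DNMT3A and DNMT3B fusions, against 0.0489% in the EGFP fusion and 0.0530% in pUC19. With these rows removed, every ratio of a kinase to pUC19 or to the EGFP fusion stayed within its counting interval or on its side of the 2-fold call. Against the EGFP fusion, however, the adjusted p threshold used below was crossed by CLK2 and DYRK4. CLK2 in the DNMT1 fusion went from 0.000356 to 0.0196 (exact test) and no longer passed. DYRK4 in the DNMT3A fusion went from 0.00302 to 0.000494 (exact test) and then passed as higher. The other kinases stayed on their side of that threshold.

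The comparison with the EGFP fusion asks which levels differed with a methyltransferase domain when dCas9, BFP and the guides were present on both sides. The DNMT1 domain is counted among these, although the paper found no significant gain of uPA promoter methylation with it. The test was an exact conditional binomial test of the read counts in a pair of libraries, adjusted by Benjamini-Hochberg over 13921 genes. It compares these libraries and not the conditions, and all 3 comparisons share the EGFP library. Called genes had an adjusted p of at most 0.001 and a 2-fold difference, the thresholds of the study's methods. No kinase was called in any of the 3 comparisons. Among the genes tested, 0.553% were called higher and 1.09% lower in the DNMT1 fusion, 2.5% and 1.94% in the DNMT3A fusion and 2.6% and 1.36% in the DNMT3B fusion.

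Without the 2-fold requirement, 7 of 9 kinases were lower in the DNMT1 fusion than in the EGFP fusion at an adjusted p of at most 0.001, as were 25.7% of the genes, and 0 were higher, against 11.5%. At 1.5-fold, CLK1 and DYRK2 were called, as were 6.52% of the genes. Neither reached 1.5-fold with TMM scaling, at log2 ratios of -0.45 and -0.57. With the trend on GC content and gene length subtracted they were at -0.30 and -0.44, also short of it. DYRK2 differed most, with 13.3 TPM against 21.8 TPM, a log2 ratio of -0.71 (-0.82 to -0.59) and an adjusted p of 1.28e-28 by the exact test. CLK1 followed with -0.59 (-0.73 to -0.44; adjusted p = 1.89e-12, exact test), DYRK1A with -0.53 (-0.60 to -0.46; adjusted p = 1.30e-36, exact test) and DYRK3 with -0.51 (-0.67 to -0.35; adjusted p = 7.12e-08, exact test). The remaining 3 of the 7 were CLK2 at -0.21, CLK3 at -0.32 and DYRK1B at -0.30. With TMM scaling 4 of the 7 stayed at an adjusted p of at most 0.001 (CLK1, DYRK1A, DYRK2 and DYRK3; 18.2% of the genes were lower), while CLK2, CLK3 and DYRK1B had adjusted p-values of 0.125, 0.00125 and 0.00236 in the exact test. CLK4 and DYRK4, at -0.12 (-0.35 to 0.12) and 0.13 (-0.06 to 0.32), did not reach the threshold, and CLK4 was at 0.02 with TMM scaling.

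The DNMT3A fusion had 4 kinases higher than the EGFP fusion at an adjusted p of at most 0.001, CLK1, CLK3, CLK4 and DYRK1A, against 25.7% of the genes. CLK4 differed most, with 14.9 TPM against 10.3 TPM and a log2 ratio of 0.52 (0.31 to 0.74; adjusted p = 1.31e-06, exact test). CLK1 and CLK3 were both at 0.28 and DYRK1A at 0.16. None was lower, against 24.3% of the genes, although CLK2, at -0.14, was past the threshold when equal TPM rather than an equal share of reads was the null, as were 25.1% of the genes.

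In the DNMT3B fusion, 2 kinases were higher than in the EGFP fusion, CLK3 at 0.24 and DYRK1A at 0.28, against 21.2% of the genes, and 2 were lower, CLK2 at -0.21 and DYRK2 at -0.28, against 25.9%. DYRK1A had 56.8 TPM against 46.8 TPM (interval of the log2 ratio 0.21 to 0.34; adjusted p = 3.76e-11, exact test). The largest of these differences, those of DYRK1A and DYRK2, were 1.21-fold.

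DYRK1B, by contrast, was level between the de novo fusions and the EGFP fusion. Its log2 ratio to the EGFP fusion was 0.04 in the DNMT3A fusion (-0.05 to 0.13; adjusted p = 0.334, exact test) and 0.03 in the DNMT3B fusion (-0.07 to 0.12; adjusted p = 0.652, exact test). The intervals, which cover counting error only, leave room for a difference of up to 0.13 on the log2 scale. A trend on GC content and gene length moved these ratios to -0.32 in both fusions.

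**Figure D4:**
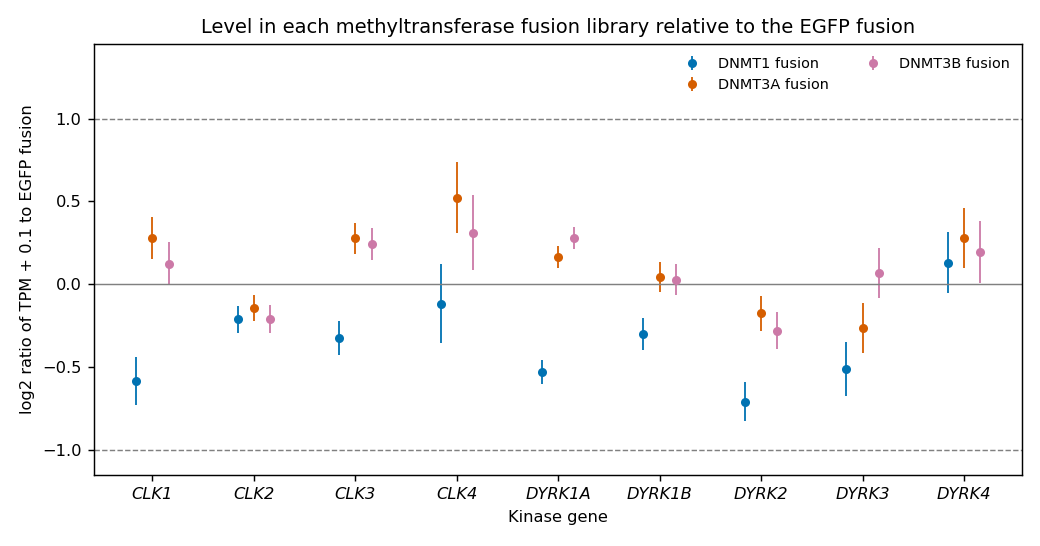
Log2 ratio of TPM + 0.1 of each methyltransferase fusion library to the EGFP fusion library for the 9 kinase genes, with 95% exact conditional binomial intervals and dashed lines at 2-fold. All points lie within the dashed lines, the DNMT1 fusion is the lowest of the 3 points for all 9 genes (level with the DNMT3B fusion for CLK2), and for DYRK1B the intervals of both de novo fusions include 0.

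The DNMT1 fusion was also low beside the de novo fusions. In each of these comparisons 6 of 9 kinases differed at an adjusted p of at most 0.001 in the exact test, beside 49.5% of the genes against the DNMT3A fusion and 47.9% against the DNMT3B fusion, and all 6 were lower in the DNMT1 fusion. CLK1, CLK3, DYRK1A, DYRK1B and DYRK2 were among them both times, with CLK4 in the comparison with DNMT3A and DYRK3 in that with DNMT3B. CLK1 had the largest ratio, -0.86 (-1.002 to -0.73) against the DNMT3A fusion. The median gene was itself at -0.119 and -0.133 in these comparisons. The null of the test was an equal share of reads, from which TPM ratios were shifted by -0.045 and -0.107 (log2). Equal TPM was not tested here.

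Between the de novo fusions no kinase reached an adjusted p of at most 0.001 in the exact test, beside 19.8% of the genes. That test took an equal share of reads as its null, and log2 ratios of TPM were shifted by -0.062 from those of read shares. On the TPM scale DYRK3 was at -0.33 (-0.48 to -0.18) and CLK1 at 0.16 (0.03 to 0.28). A test against equal TPM was not run for this pair. The smallest values were those of CLK1, at 29.6 TPM in the DNMT3A fusion and 26.5 TPM in the DNMT3B fusion (adjusted p = 0.00186, exact test), and of DYRK3, at 23.1 TPM and 29.1 TPM (adjusted p = 0.00192, exact test). For DYRK1B the log2 ratio of DNMT3A to DNMT3B was 0.02 (-0.07 to 0.11).

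The fusions with a de novo domain (DNMT3A and DNMT3B) were next compared with those without one (DNMT1 and EGFP). This was done by edgeR's quasi-likelihood test on the counts, which takes its error from the spread within these pairs of constructs. The constructs are not replicates, so that its p-values do not measure the spread between transfections. No kinase passed an adjusted p of 0.05 over 15332 genes, in edgeR or in DESeq2, against 6.9% of the genes higher and 4.15% lower. At an unadjusted p under 0.05 there were 4, CLK1, CLK3, CLK4 and DYRK1A, all higher with a de novo domain, beside 28.8% of the genes in either direction. Their log2 fold changes were 0.43 ± 0.17 (SE) for CLK1 (adjusted p = 0.141, edgeR), 0.37 ± 0.14 for CLK3 (adjusted p = 0.112, edgeR), 0.43 ± 0.18 for CLK4 (adjusted p = 0.144, edgeR) and 0.42 ± 0.15 for DYRK1A (adjusted p = 0.0976, edgeR). CLK1, CLK3 and DYRK1A passed when the EGFP library was left out, with adjusted p-values of 0.00222, 0.0116 and 0.000268 in edgeR, the lone DNMT1 library then being assumed to vary like the de novo pair.

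On the TPM scale both de novo fusions lay above both other fusions for 6 of the 9 kinases, beside 34.9% of the genes. These were CLK1, CLK3, CLK4, DYRK1A, DYRK1B and DYRK4. No kinase had both de novo fusions below both others, beside 23.3% of the genes. For DYRK1B the intervals of both de novo fusions against the EGFP fusion included 0. With the trend on GC content and gene length subtracted, both ratios were at -0.32. For DYRK4 the interval of the DNMT1 fusion against the DNMT3B fusion, -0.25 to 0.11, included 0. In edgeR DYRK1B differed by 0.13 (-0.17 to 0.42; adjusted p = 0.558, edgeR). DYRK2 differed by 0.05 (-0.38 to 0.47), DYRK3 by 0.10 (-0.31 to 0.51) and DYRK4 by 0.11 (-0.26 to 0.48). The intervals of DYRK2, DYRK3 and DYRK4 include the 0.43 seen for CLK1, and that of DYRK1B ends at about that size. With 2 constructs on each side, a like change in DYRK2, DYRK3 or DYRK4 is thus not excluded.

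What the transcripts are made of differed widely within the families. CLK1 and CLK4 are AT-rich, with 35.7% and 37.3% GC against a median of 48.96% for genes tested, and DYRK1B is GC-rich, with 63.9%, higher than 94.2% of the genes. With a trend on GC content and gene length subtracted, DYRK1B remained at 1.34, 1.43, 1.43 and 1.75 (log2) from pUC19 in the DNMT1, DNMT3A, DNMT3B and EGFP fusions, and DYRK1A at 0.69, 1.31, 1.32 and 0.996. CLK1 in the DNMT1 fusion went from -0.66 to -0.23 and CLK4 from -0.67 to -0.30. The differences of these CLK genes from pUC19 in the DNMT1 fusion were thus smaller on that scale. DYRK1B stayed past 2-fold in every fusion, but in the DNMT3A and DNMT3B fusions its ratio was lower than the 1.74 and 1.73 without the subtraction. DYRK1A in the EGFP fusion went from 1.10 to just under 2-fold.

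The share of each transcript that was covered by reads was highest for DYRK1B, at 96.3% to 99.2% of its length. It was lowest in the fusions for CLK4, at 68.5% to 73.7%, with 81.1% in pUC19, and lowest in pUC19 for CLK1, at 80.7%, with 73.2% to 75.7% in the fusions. As the pUC19 library was the deepest, depth moves with this difference, and its part was not tested. Of all 50-base windows of a transcript, 12.5% also occur in another gene for DYRK1B (an overlapping gene on the same strand, ENSG00000291312), 6.13% for CLK2, 5.25% for DYRK4 (a readthrough gene, ENSG00000272921), 1.75% for CLK3 and none for the other 5. Reads of DYRK1B from those windows cannot be assigned to DYRK1B or to the overlapping gene.

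Kinases related to these families showed no 2-fold difference shared by all fusions. Of 8 listed (HIPK1 to HIPK4, PRPF4B and SRPK1 to SRPK3), 6 had a mean of at least 1 TPM. PRPF4B, a kinase of the spliceosome, was at 19.6, 23.1, 25.4 and 24.6 TPM in the DNMT1, DNMT3A, DNMT3B and EGFP fusions and at 39.6 TPM in pUC19. It was lower in every fusion and just past 2-fold in the DNMT1 fusion, with a log2 ratio of -1.01. SRPK1, which phosphorylates SR proteins in the cytoplasm before the CLK kinases act on them in the nucleus, was at 114, 114, 139 and 119 TPM in the fusions in the same order and at 163 TPM in pUC19.

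HIPK2 and HIPK3 are nuclear kinases of the DYRK group. HIPK3 was at 17.0, 23.8, 28.7 and 27.8 TPM in these fusions and at 16.6 TPM in pUC19. HIPK2 was highest in the EGFP fusion, at 51.3 TPM, against 37.1, 25.9 and 29.2 TPM in the DNMT1, DNMT3A and DNMT3B fusions and 25.9 TPM in pUC19. HIPK2 was the only one of the 6 to pass edgeR between the fusions, where it fell by 0.73 on the log2 scale with a de novo domain (adjusted p = 0.0153), a call that was lost without the DNMT3A or the DNMT3B library. The median of the 6 in that test was 0.08, beside -0.01 for all genes.

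The SR proteins, the substrates of the CLK kinases, were all expressed, with 14 of 14 above 1 TPM and a summed level of 2254 TPM in the DNMT1 fusion, 2913 TPM in the DNMT3A fusion, 2851 TPM in the DNMT3B fusion, 2665 TPM in the EGFP fusion and 2525 TPM in pUC19. None differed 2-fold from pUC19 in any fusion, and the 4 with the largest mean ratio (SRSF4, SRSF1, SRSF5 and SRSF10) were higher by 0.40 to 0.45 (log2). SRSF4 was at 219, 380, 359 and 267 TPM in the DNMT1, DNMT3A, DNMT3B and EGFP fusions and at 218 TPM in pUC19. SRSF4 rose with a de novo domain by 0.56 (adjusted p = 0.0220, edgeR) and SRSF2 by 0.41 (adjusted p = 0.0489, edgeR), and the other 12 did not pass, where 6.9% of all genes rose. Neither passed without the DNMT3A or the DNMT3B library. The median of the 14 was 0.18, beside -0.01 for all genes. SRSF2 was at 210, 301, 293 and 221 TPM in the DNMT1, DNMT3A, DNMT3B and EGFP fusions and at 284 TPM in pUC19. For SRSF2 the control thus lay below the de novo fusions and above the other fusions.

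Partners and substrates of the DYRK kinases were 23 genes in the files, of which 22 had a mean of at least 1 TPM. With a de novo domain 5 rose and 1 fell in edgeR, beside 6.9% and 4.15% of all genes, and the median of the 23 was 0.24 beside -0.01 for all genes. CCND1, the cyclin D1 whose breakdown class I DYRK kinases promote, rose by 0.88 (adjusted p = 0.00621, edgeR), NFATC4, a transcription factor that DYRK1A keeps out of the nucleus, by 0.80 (adjusted p = 0.0140, edgeR), CDC25A, a phosphatase that promotes the entry into S phase, by 0.56 (adjusted p = 0.0411, edgeR), KATNA1, the katanin subunit that DYRK2 marks for breakdown, by 0.52 (adjusted p = 0.0394, edgeR) and FAM53C by 0.46 (adjusted p = 0.0434, edgeR). DDB1, of the ubiquitin ligase that DYRK2 assembles, fell by 0.43 on the log2 scale (adjusted p = 0.0478, edgeR). CCND1 was at 34.7 and 34.9 TPM in the DNMT1 and EGFP fusions and 64.4 and 68.4 TPM in the DNMT3A and DNMT3B fusions. In pUC19 it was at 52.6 TPM, so that the control lay between them. KATNA1 was at 43.1 and 46.2 TPM, 69.8 and 63.5 TPM and 63.2 TPM in the same order, with the control also between them. None of the 9 genes called in these 3 lists passed when the DNMT3A or the DNMT3B library was left out, when 18 and 53 genes passed in all, against 1694 with all 4 libraries.

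Against pUC19, 3 genes of this list were 2-fold higher in the DNMT3A fusion and 3 in the DNMT3B fusion, beside 5.88% and 6.16% of the genes. In the lower direction there were 2 in the DNMT1 fusion and 1 in the EGFP fusion, beside 4.88% and 4.13%. Genes with the largest mean ratios lay on both sides of the control. VPRBP, the substrate receptor of the DYRK2 ligase, was at 12.0, 18.4, 17.3 and 13.8 TPM in the DNMT1, DNMT3A, DNMT3B and EGFP fusions and at 31.8 TPM in pUC19, so that every fusion was below the control. CDC25A was at 170, 317, 318 and 248 TPM in the fusions in the same order and at 137 TPM in pUC19. FAM53C, which binds the class I kinases, was at 93.1, 147, 156 and 119 TPM in the fusions and at 71.5 TPM in pUC19. No gene of the list was 2-fold away from pUC19 in all 4 fusions, as 0.812% of the genes were in the higher and 1.52% in the lower direction.

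The genes whose ratios to pUC19 were most like those of DYRK1B were found by the largest difference of their log2 ratios from those of DYRK1B over the 4 fusions, among 10933 other genes with a mean of at least 5 TPM. They were ZBTB37 (largest difference 0.081), AIFM2 (0.19), ZNF221 (0.20), NOL3 (0.24) and LOC644961 (0.25). ZBTB37 was at 6.18, 8.74, 7.91 and 7.58 TPM in the DNMT1, DNMT3A, DNMT3B and EGFP fusions and at 2.40 TPM in pUC19. These ratios all share the pUC19 library, and the likeness is a description over 4 values.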

How the data were processed

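RNA-seq libraries from HEK293T cells, 1 per group, were analysed, with groups taken from the sample titles. Per the labels and the study's methods, fragments of poly(A) RNA were copied into cDNA, selected at about 240 bp, amplified in 12 PCR cycles and read on an Ion Proton. The authors discarded reads that were of low quality, held adaptor or were under 30 nt, aligned the rest with tmap (version not given in the sources used here) to RefSeq RNA of hg19 with at most 3 mismatches, and kept unique reads. The deposited read count per gene is a whole number without normalization. The deposited TPM were recomputed from counts and gene lengths with identical results. The deposited coverage in percent, which the authors did not define, was read as the share of the transcript with a read. Genes without a row were set to 0.

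The members and the lists of related genes were chosen with earlier results of these data known. Ratios are of TPM + 0.1, with Poisson or conditional binomial intervals at 95%, for genes with a mean of at least 1 TPM. At these depths 3 reads correspond to 0.0830 to 0.114 per 1000000 reads. PCR reads are not independent molecules, so intervals cover counting error only. The tests were two-sided exact binomial tests of library pairs (scipy 1.17.1) and edgeR 4.0.16 (R 4.3.3) with TMM and filterByExpr, with DESeq2 1.42.0 as an alternative. GC content and 50-base windows were taken from the GENCODE v44 transcript closest in length to the deposited one on GRCh37, and 90.74% of genes tested had a GC value. Named genes were the 9 kinases, PLAU, from each list up to 4 genes with the largest mean ratio to pUC19, and 5 genes like DYRK1B. A gene of the DYRK partner list is not reported here. Genes of the lists that passed edgeR (SRSF2, CCND1, NFATC4, KATNA1 and DDB1 beyond that rule) were named after their values were seen. The edgeR comparison was tested on simulated counts with larger changes than those seen in the kinases and a smaller spread than in these data. That test does not cover changes of the size reported here. The alternatives tried were TMM scaling, a pseudocount of 1 TPM, removal of the DNMT rows, a trend on GC content and length (loess span 0.3), no filter on low values, a 1.5-fold threshold, an assumed biological coefficient of variation of 0.2, other size factors, and leaving out each fusion. An exact test against equal TPM was added after seeing the data, for the comparisons with the EGFP fusion only.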

Additional observations from a re-analysis of the deposited data

Results flagged for a closer look

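For 4 of the kinases, a pair of fusions lay on opposite sides of pUC19 and also differed from each other at an adjusted p of at most 0.001 in the exact test of their reads. The share of all genes that met both conditions was not computed, so nothing is read from this number of kinases. All of these ratios share the pUC19 library, and the test compares libraries and not conditions. CLK1 was below pUC19 in the DNMT1 fusion (log2 ratio -0.66) and above it in the fusions of DNMT3A (0.20) and DNMT3B (0.05), from which the DNMT1 fusion differed by -0.86 (adjusted p = 4.24e-33, exact test) and -0.71 (adjusted p = 1.44e-16, exact test). Between the DNMT3A and EGFP fusions CLK1 differed by 0.28 (adjusted p = 1.03e-05, exact test). CLK3 was at -0.25 from pUC19 in the DNMT1 fusion and at 0.35, 0.31 and 0.07 in the DNMT3A, DNMT3B and EGFP fusions, from which the DNMT1 fusion differed by -0.60 (adjusted p = 2.32e-29, exact test), -0.57 (adjusted p = 6.16e-19, exact test) and -0.32 (adjusted p = 1.19e-06, exact test).

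DYRK2 was at -0.67 in the DNMT1 fusion, -0.24 in the DNMT3B fusion and 0.04 in the EGFP fusion. The DNMT1 and DNMT3B fusions differed from the EGFP fusion by -0.71 (adjusted p = 1.28e-28, exact test) and -0.28 (adjusted p = 5.43e-09, exact test). DYRK3 was at -0.39 in the DNMT1 fusion, 0.12 in the EGFP fusion and 0.19 in the DNMT3B fusion, and the DNMT1 fusion differed from the last of these by -0.58 (adjusted p = 1.17e-08, exact test) and from the EGFP fusion by -0.51 (adjusted p = 7.12e-08, exact test).

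The intervals of the EGFP fusion against pUC19 included 0 for all 4 genes, as did that of CLK1 in the DNMT3B fusion (-0.07 to 0.16), so that the side on which these lay is not settled by the reads. The threshold alone, whatever the side of pUC19, was often passed. It was passed by 49.5% of the genes between the DNMT1 and DNMT3A fusions and 47.9% between the DNMT1 and DNMT3B fusions. Relative to the median gene of the DNMT1 library the ratios of CLK1, CLK3, DYRK2 and DYRK3 to pUC19 were -0.53, -0.11, -0.53 and -0.25. No group had enough libraries to look for one that stands apart.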

How the results depend on the processing

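With 1 library per group, the precision of a level is set by its reads, from 294 for CLK4 in the EGFP fusion to 4394 for DYRK1A in the DNMT3A fusion, and the spread between repeated transfections is unknown. The number of kinases past 2-fold from pUC19 or called against the EGFP fusion was the same with a pseudocount of 1 TPM, with TMM scaling, without the DNMT rows and without the filter on low values. At 1.5-fold, 3 kinases were lower than pUC19 in the DNMT1 fusion and 2 (CLK1 and DYRK2) were called lower than the EGFP fusion there, in place of 0. None of these differences reached 1.5-fold with TMM scaling or with the trend on GC content and gene length subtracted. With the trend on GC content and gene length subtracted, 1 kinase in place of 2 was 2-fold higher than pUC19 in the EGFP fusion. When a biological coefficient of variation of 0.2 was assumed, no kinase had an adjusted p of at most 0.001 against the EGFP fusion (edgeR exact test).

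Between de novo and other fusions, 2 kinases passed edgeR with the GC content and length offset in place of 0, CLK1 at 0.52 (adjusted p = 0.0439) and DYRK1A at 0.49 (adjusted p = 0.0255), and 0 to 3 passed when 1 library was left out (3 without the EGFP fusion). The number of all genes that passed was 1694, against 1052 without the filter, 2190 with the offset, 2190 in DESeq2 and 18 to 3850 with 1 library left out. Of the 9 related genes called, 4 passed without the filter and 0 without the DNMT3A or the DNMT3B library. Without the DNMT1 or the EGFP library, 3536 and 3850 genes passed.

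Against pUC19, 3 ratios changed sign with the GC trend, CLK4 in the DNMT3A fusion (-0.03 to 0.23), DYRK2 in the DNMT3A fusion (-0.14 to 0.065) and CLK1 in the EGFP fusion (-0.08 to 0.069). The following changed sign between fusions. CLK4 between the DNMT1 and EGFP fusions became 0.021 with TMM scaling and 0.12 with the GC trend. DYRK1B against the EGFP fusion became -0.32 in both de novo fusions with the GC trend and -0.027 in the DNMT3B fusion with the assumed coefficient of variation, and -0.12 in edgeR with the offset. DYRK2 in the DNMT3A fusion became 0.039 with the GC trend. With 1 library left out, DYRK2 ranged from -0.21 (without DNMT1; -0.013 without DNMT3A) to 0.36, DYRK3 from -0.076 (without DNMT1; -0.066 without DNMT3B) to 0.30, and DYRK4 from -0.012 (without EGFP) to 0.25. The cause was not tested. No paired analysis was possible because each group had 1 library and the labels carry no replicate numbers.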
